A study of Mus musculus with 25 samples.

Results

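Adult mouse liver was compared with crypts of the adult mouse colon on 4 arrays, 2 per tissue, of the 25 arrays in the series. The arrays were taken by their titles alone, and each of the 34945 probe sets with 1 gene symbol was read on all 4. The series profiled engineered mouse cells beside native tissues, to ask how closely induced cell types match the cells they are meant to become. Liver and colon crypts served there as native references for induced hepatocytes (iHep), cells made from embryonic fibroblasts that the study also placed in the colon. RNA was measured on Affymetrix expression arrays from 100 ng of total RNA after Nugen amplification and biotin labelling, and the deposited values are log2 signals per probe set. A difference of 1 on this scale is a ratio of 2.

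The adult liver arrays came from C57BL/6J mice, and their labels conflict. The source label names freshly collected liver of an 8-week-old mouse, whereas the protocol text describes hepatocytes released from livers of 10-week-old mice by collagenase. Whether these arrays hold whole liver or isolated hepatocytes is therefore not settled by the labels. The colon arrays came from an 8-week-old Rag2gammac-/- mouse, a genotype without the recombinase gene Rag2 and the common gamma chain of interleukin receptors, and so with very few lymphocytes. Crypts were released with EDTA and dissociated with 0.25% trypsin. No drug or other treatment is named for either tissue. Tissue, strain, genotype and the way of isolating cells all changed together and cannot be told apart. The labels do not say whether the 2 arrays of a tissue came from separate mice, so the spread between them may be technical. Each p-value draws on the spread within all groups of a fit over 11 arrays, not within liver and colon alone.

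Hepatocytes secrete most proteins of blood plasma, build lipoproteins, detoxify drugs with cytochromes P450 and conjugating enzymes, make urea and bile acids, and release glucose. The colon crypt is a pocket of epithelium in which stem and dividing cells at the base give rise to absorptive colonocytes, mucus-producing goblet cells and hormone-secreting enteroendocrine cells. Both organs form from endoderm and share the transcription factors HNF1 and HNF4A, while the homeodomain factors CDX1 and CDX2 are restricted to the intestine after birth.

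Since regulators of the HNF1 family act in both tissues, the 250 bases before the annotated start of 3 liver genes and 2 colon genes are shown, taken from RefSeq on GRCm38.p6 and written 5′ to 3′ on the gene's strand, with motif matches in capitals. Alb, Fga and Serpina1c encode secreted plasma proteins, Slc26a3 encodes the chloride-bicarbonate exchanger of colonocytes, and Cdx2 encodes the intestinal homeodomain factor. The stretches lie at chr5:90460620-90460869 on the plus strand for Alb, chr3:83025903-83026152 on the plus strand for Fga, chr12:103904951-103905200 on the minus strand for Serpina1c, chr12:31437969-31438218 on the plus strand for Slc26a3 and chr5:147307250-147307499 on the minus strand for Cdx2.
Alb: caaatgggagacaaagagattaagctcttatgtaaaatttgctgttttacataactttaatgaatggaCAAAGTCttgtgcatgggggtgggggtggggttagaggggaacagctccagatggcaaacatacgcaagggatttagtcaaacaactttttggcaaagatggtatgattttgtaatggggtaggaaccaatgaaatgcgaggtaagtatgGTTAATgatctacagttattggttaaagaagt
Fga: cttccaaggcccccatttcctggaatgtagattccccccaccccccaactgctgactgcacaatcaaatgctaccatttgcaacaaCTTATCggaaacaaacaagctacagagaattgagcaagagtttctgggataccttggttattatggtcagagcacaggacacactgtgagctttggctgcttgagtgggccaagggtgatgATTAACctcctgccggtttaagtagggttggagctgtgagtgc
Serpina1c: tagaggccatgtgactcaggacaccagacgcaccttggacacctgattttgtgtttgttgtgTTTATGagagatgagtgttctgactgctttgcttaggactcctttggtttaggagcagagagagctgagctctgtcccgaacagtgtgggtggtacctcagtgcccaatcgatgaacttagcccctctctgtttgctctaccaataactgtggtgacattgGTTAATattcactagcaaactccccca
Slc26a3: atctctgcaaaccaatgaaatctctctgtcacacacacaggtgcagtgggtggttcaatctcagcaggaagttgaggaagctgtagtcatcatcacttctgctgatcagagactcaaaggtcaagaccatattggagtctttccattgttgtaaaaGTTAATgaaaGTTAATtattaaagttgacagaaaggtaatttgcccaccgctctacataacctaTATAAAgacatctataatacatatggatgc
Cdx2: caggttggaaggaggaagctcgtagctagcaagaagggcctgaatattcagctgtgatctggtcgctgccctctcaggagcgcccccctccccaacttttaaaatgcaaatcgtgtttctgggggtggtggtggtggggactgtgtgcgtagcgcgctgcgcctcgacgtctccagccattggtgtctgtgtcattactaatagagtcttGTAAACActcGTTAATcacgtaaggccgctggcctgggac
The letters GTTAAT, part of the HNF1 site, or their reverse complement lay 32 bases before the start of Alb, 43 before that of Fga, 27 before that of Serpina1c, 94 and 84 before that of Slc26a3, and 30 before that of Cdx2. Alb also holds CAAAGTC, part of the HNF4 site, 182 bases before its start. Fga holds the reverse complement of the GATA motif GATAAG 164 bases before its start. Serpina1c holds the letters TTTATG, known from sites of CDX factors, 188 bases before its start. Slc26a3 holds the TATA letters TATAAA 30 bases before its start. Cdx2 holds the reverse complement of the forkhead motif TGTTTAC 40 bases before its start. Matches are descriptions of letters, not sites of binding. The genes shown are examples and do not stand for the genes of either tissue. All of them hold the HNF1 letters, whereas most promoters of either gene set lacked them, as the shares below give.

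Over promoters of 300 bases, which add the 50 bases after the start, the HNF1 letters were found on either strand in 17.0% of the 153 promoters available for the 200 genes highest in liver. They were found in 8.33% of the 156 promoters of the 200 genes highest in colon, and in 4.38% of the 11130 promoters of all tested genes. The CDX-like letters were in 17.0%, 9.62% and 7.04% of these promoters, so they were no more frequent in the colon genes than in the liver genes. TATAAA was in 26.8%, 20.5% and 8.28%, the HNF4 letters in 11.8%, 6.41% and 4.01%, the forkhead letters in 8.50%, 5.77% and 2.71%, and GATAAG in 14.4%, 10.3% and 5.34%. Each of the 6 motifs was thus more frequent in both sets than in all promoters, and more frequent in the liver set than in the colon set. Overlapping motifs were counted separately, and no test was made. The base composition of the promoters was not compared and no control motif was counted. A rise shared by all 6 motifs can therefore not be credited to any single factor.

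Before any gene is compared, the arrays themselves differed by tissue. The 24 probe sets for poly-A spikes, bacterial transcripts added to the RNA before labelling, averaged 10.42 and 9.58 on the liver arrays and 3.91 and 3.84 on the colon arrays, and all 24 were higher on both liver arrays. Across the series the spike mean was at least 8.30 in 5 groups and at most 4.29 in the other 5, colon among them, so the presence of these spikes cannot be told apart from tissue here. The 18 probe sets for hybridisation spikes, which are added later, averaged 12.67 and 12.37 against 12.64 and 12.62. The beta-actin probe set at the 3′ end exceeded that at the 5′ end by 1.21 and 1.99 on the liver arrays. The difference was -0.15 and -0.23 on the colon arrays and between -0.28 and 0.49 on the other 21. For Gapdh the differences were 1.05 and 1.46 in liver and 0.79 and 0.86 in colon, within or close to the range of the other arrays (-0.09 to 1.41). The 2 liver arrays correlated at 0.967 over probe sets and differed by at least 1 at 1153 tested genes (8.30%), and the 2 colon arrays correlated at 0.986 and differed so at 280 (2.02%). With the spike mean as a covariate in the limma fit over 11 arrays, 0 genes passed the threshold used below and 1608 had an unadjusted p under 0.05. The median SE was 2.50 there, against 0.30 without the covariate. The slope of the covariate comes only from differences between arrays within a group, so that fit cannot separate spikes from tissue. The part of RNA quality in the gene results was not tested.

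**Figure D1:**
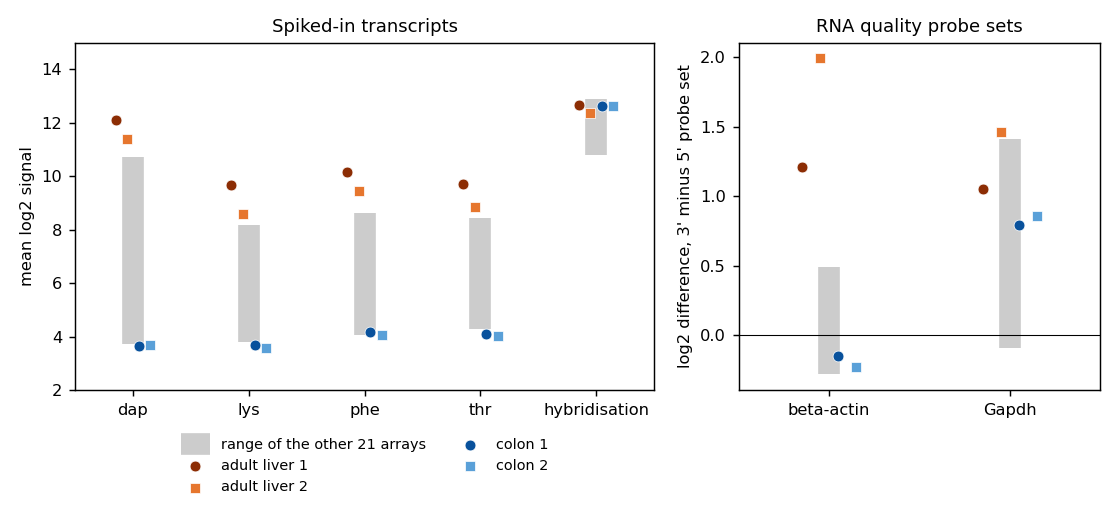
Left, mean log2 signal of the poly-A spike probe sets (dap, lys, phe, thr) and of the hybridisation spikes; right, the log2 difference between 3′ and 5′ probe sets of beta-actin and Gapdh. Points are single arrays and grey bars the range of the other 21 arrays. The liver arrays have dap at 12.11 and 11.40 and the colon arrays at 3.66 and 3.70, while the hybridisation spikes differ little, and both liver arrays lie above the other 21 for beta-actin.

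Of 13894 genes tested, 8983 (64.7%) passed the threshold, which was 0.05 for the two-sided limma p after Benjamini-Hochberg adjustment. Of all tested genes, 3518 (25.3%) were higher in adult liver and 5465 (39.3%) were higher in colon. The counts of each list below are read against these shares. The liver and colon arrays did not overlap at 11795 genes (84.9%), so a member that is called, or that does not overlap, is the rule rather than the exception in this comparison. Differences were large at both ends: 312 genes were higher in liver and 304 were higher in colon by at least 5 on the log2 scale, and 98 and 24 by at least 8. Among the calls, 1203 of those higher in liver were under the 40th percentile on both colon arrays, and 835 of those higher in colon were under it on both liver arrays. That percentile was 5.60 to 5.80, and a difference from a level below it is limited by the background of the probe set.

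The median difference over all tested genes was -0.32, toward colon. The 75th percentile of probe sets was 7.89 and 7.94 on the liver arrays and 8.58 and 8.54 on the colon arrays. Medians lay between 6.25 and 6.30. More of the deposited colon values were thus high, and the columns did not share the same distribution. Whether this comes from the tissue or from the processing was not tested. Repeating quantile normalization over the 11 arrays moved the median of all genes by 0.38 and changed the split of calls to 4538 higher in liver and 4367 higher in colon. The excess of colon calls therefore depends on the scaling, and small differences below are read against it.

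**Figure D2:**
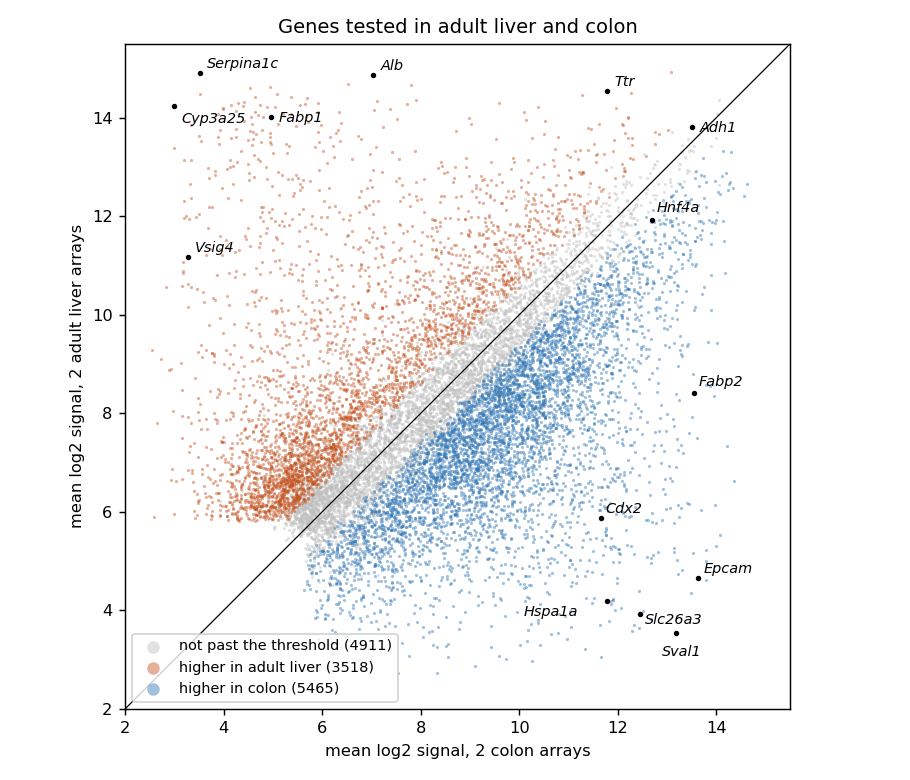
Mean log2 signal of each tested gene on the 2 colon arrays (horizontal) and the 2 adult liver arrays (vertical), with the line of equal signal. Alb and Serpina1c lie at the top left with other genes high in liver; Epcam, Slc26a3 and Sval1 sit at the opposite corner, and Ttr and Adh1 are high in both.

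The largest differences toward liver exceeded 10 on the log2 scale. Serpina1c, a serine protease inhibitor of the alpha-1-antitrypsin family, measured 14.94 and 14.89 in liver and 2.81 and 4.20 in colon, a difference of 11.41 ± 0.54 (SE; limma adjusted p = 1.42e-07). Cyp3a25, a cytochrome P450, measured 14.33 and 14.15 in liver and 2.95 and 3.03 in colon, a difference of 11.25 ± 0.55. Fga, the alpha chain of fibrinogen, measured 13.91 and 13.80 against 3.62 and 3.06, a difference of 10.52 ± 0.28. In each case the colon values were within the range of the 6 induced macrophage arrays of the series, or within 1 of it. Those cells are neither hepatocytes nor gut epithelium. The arrays are 2 each with scramble shRNA, Ebf1 shRNA and Pou2af1 shRNA. The other leaders in liver, by 10.00 to 10.96, were Cyp3a11, F13b, Pik3cd, Cyp2c29, Itih3, Elovl2, Pzp, Serpina1b and Rdh7. Pik3cd, a phosphoinositide kinase subunit best known from leukocytes, stands there through 1 probe set (14.21 and 14.19 against 4.0 and 3.97), while its other tested probe set differed by 1.50.

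In colon, Sval1 measured 3.53 on both liver arrays and 13.10 and 13.27 on the colon arrays, a difference of -9.66 ± 0.32 (limma adjusted p = 1.93e-08). Tspan8, a tetraspanin of gut epithelium, measured 4.64 and 3.13 in liver and 13.22 and 13.19 in colon (-9.32 ± 0.48). Epcam, the epithelial cell adhesion molecule, measured 4.58 and 4.74 against 13.61 and 13.67 (-8.98 ± 0.79). The colon arrays were higher throughout and lay within 0.2 of each other for these genes. Ckmt1, Mptx1, Tmem45b, Dmbt1, Gsdmc2, Muc3, Clca1, Cldn23 and Lypd8 followed, at -9.18 to -8.57. Among them Muc3 and Clca1 are products of the mucous surface, Dmbt1 and Lypd8 bind bacteria, and Ckmt1 is the mitochondrial creatine kinase.

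**Figure D3:**
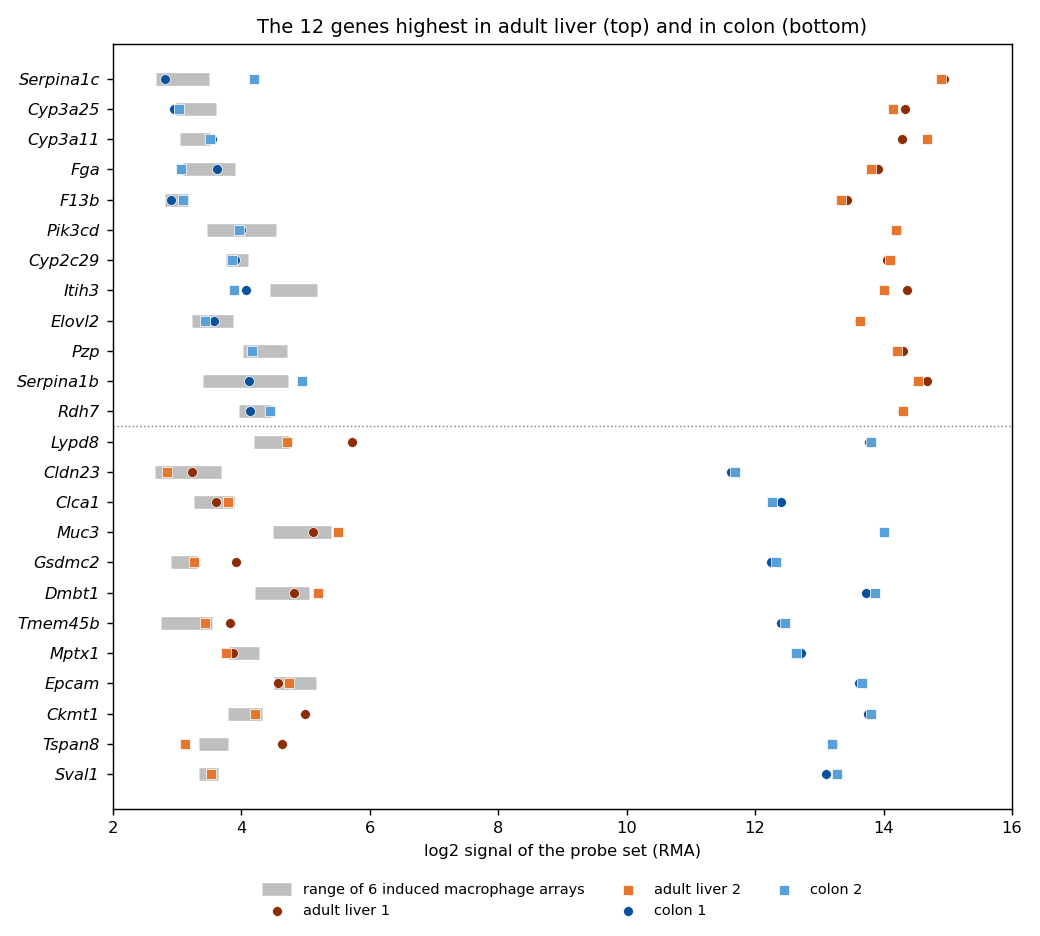
Log2 signal of the 12 genes with the largest differences in each direction, one row per gene. Points are the 4 arrays and grey bars the range of 6 induced macrophage arrays; the tissue in which a gene is low sits between 2.81 and 5.73, and the other tissue sits at 11.62 or above.

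Every clotting and fibrinolysis factor tested, 19 of 19, was higher in liver, with a median difference of 8.66, against 25.3% of all genes tested. F9, coagulation factor IX, measured 13.14 and 13.13 in liver and 3.24 and 3.17 in colon (9.94 ± 0.25), and Plg, the precursor of plasmin, 14.30 and 14.21 against 5.01 and 4.47. F2, prothrombin, differed by 9.36 ± 0.31. The liver arrays were within 0.5 of each other for these genes and far above both colon arrays. Among plasma carriers 19 of 20 were higher in liver, with a median of 8.31. Alb, serum albumin, measured 14.99 and 14.75 in liver and 7.29 and 6.77 in colon, a difference of 7.84 ± 1.40 (limma adjusted p = 0.000764). Hpx, the heme carrier hemopexin, differed by 9.80 ± 1.02.

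The carrier that did not pass was Ttr, transthyretin, which carries thyroxine and retinol-binding protein. It measured 14.33 and 14.74 in liver and 11.84 and 11.75 in colon. The tissues did not overlap, but the difference of 2.74 ± 1.63 missed the threshold (limma adjusted p = 0.164). Its SE draws on the spread of the iHep arrays in the same model, which ran from 4.93 to 12.00, and with the 4 liver and colon arrays alone the adjusted p was 0.000266. All 4 of its probe sets lay between 2.66 and 2.79. The colon level was far above that of the induced macrophages (3.87 to 5.95). For albumin the colon arrays lay close to the highest macrophage value of 7.12, which came from the Pou2af1 shRNA group. They lay above the scramble shRNA macrophages (5.06 to 6.02).

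Complement followed the same direction, with 18 of 19 tested components higher in liver (median 5.67). Cfi, the protease that inactivates C3b, measured 14.38 and 14.11 against 4.26 and 4.51 (9.86 ± 0.29), and Mbl2, a mannose-binding lectin, differed by 9.82 ± 0.57. The exception, named after its value was seen, was Cd55, a membrane protein that shields cells from complement, at 7.78 and 6.63 in liver and 10.33 and 10.26 in colon (-3.09 ± 0.47). Of 21 acute phase proteins, 17 were higher in liver, 1 was higher in colon and 3 did not pass. Crp, C-reactive protein, differed by 9.99 ± 0.37 and Cp, the copper carrier ceruloplasmin, by 9.40 ± 0.41. Saa1, a serum amyloid A protein, was the 1 higher in colon, at 11.44 and 11.74 against 12.93 and 12.96 (-1.35 ± 0.30). Its relative Saa2 measured 7.72 and 7.89 against 8.11 on both colon arrays and did not pass.

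All 20 apolipoproteins and lipoprotein assembly genes were higher in liver, with a median of 6.27. Apoc3, which slows the clearance of triglyceride-rich particles, measured 14.19 and 14.26 in liver and 5.10 and 4.99 in colon (9.17 ± 0.50). Apoa1, which builds high-density lipoprotein, measured 14.71 and 14.65 against 6.35 and 6.68 (8.16 ± 0.31). Apoa4, made by the small intestine as well as by liver, measured 12.07 and 11.80 against 6.57 and 6.28. All 4 tested genes of the major urinary proteins and hepcidin were higher in liver. Hamp2, a hepcidin, measured 14.26 and 14.41 against 7.27 and 6.95 (7.22 ± 0.21). Mup5, a urinary pheromone carrier, measured 6.75 on one liver array and 11.90 on the other, against 5.22 and 4.27 in colon (4.58 ± 1.24), and without colon replicate 2 the difference of 4.11 no longer passed.

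Of 33 tested genes of the urea cycle and amino acid breakdown, 31 were higher in liver (median 5.23). Cps1, which commits ammonia to the urea cycle, measured 13.50 and 14.16 against 5.22 and 5.73 (8.36 ± 1.14), and Arg1, which releases urea, 11.95 and 12.86 against 5.16 and 5.64 (7.01 ± 0.57). Mat1a, the S-adenosylmethionine synthase of liver, measured 12.58 and 12.55 against 4.16 and 3.77. Liver was higher on both arrays for each of these enzymes. Glul, glutamine synthetase, went the other way at the edge of the threshold, at 11.50 and 12.28 in liver and 12.67 and 12.69 in colon (-0.79 ± 0.32, limma adjusted p = 0.0499). That call was lost under 9 of 16 other settings, among them without adult liver replicate 1 (-0.40), colon replicate 1 (-0.80) or colon replicate 2 (-0.78). Got1, a cytosolic aminotransferase, measured 9.22 and 11.44 against 10.67 and 10.47, did not pass, and overlapped, though without adult liver replicate 2 its difference of -1.35 passed.

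Cytochromes P450 were mostly liver genes, with 32 of 39 tested members higher in liver, against 25.3% of all genes tested. Another 4 were higher in colon and 3 were not past the threshold. Cyp2e1, which oxidises ethanol, measured 13.67 and 13.74 in liver and 4.59 and 4.58 in colon (9.12 ± 0.39). Cyp1a2, which oxidises caffeine, measured 14.30 and 13.59 against 4.45 and 4.38 (9.53 ± 0.31). The 4 that were higher in colon, picked out by their values, were Cyp2c55, Cyp2c65, Cyp2s1 and Cyp4f16. Cyp2c55 measured 6.35 and 7.64 in liver and 12.70 and 13.05 in colon (-5.88 ± 0.47). Cyp2c65 measured 3.67 and 4.08 against 9.61 and 9.82 (-5.84 ± 0.77). The Cyp2c family was therefore divided: Cyp2c29 and Cyp2c54 differed by 10.20 and 9.73 toward liver, and these relatives by more than 5 toward colon. Related members of such families can share probe sequence.

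Conjugating and detoxifying enzymes were less one-sided than the cytochromes, with 30 of 53 higher in liver, 9 higher in colon and 14 not past the threshold (median 2.32). The shares of all genes tested were 25.3% and 39.3%, so they still leaned toward liver. Ugt2a3, a glucuronosyltransferase, measured 13.04 and 13.25 in liver and 3.12 and 3.57 in colon (9.80 ± 0.36), and Aox3, an aldehyde oxidase, differed by 8.54 ± 0.32. On the colon side Mgst3, a microsomal glutathione transferase, measured 8.13 and 8.41 in liver and 13.28 and 13.22 in colon (-4.98 ± 0.25). Mgst2 differed by -4.77 ± 0.50 and the sulfotransferase Sult1b1 by -4.20 ± 0.49. Adh1, the class I alcohol dehydrogenase, was high in both tissues, at 13.67 and 13.96 against 13.53 and 13.49, and its difference of 0.30 ± 0.57 did not pass. In fetal liver of the same series it measured 7.54 to 7.70.

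Of 26 tested genes of bile acid synthesis and transport, 20 were higher in liver, against 25.3% of all genes tested. Another 4 were higher in colon, and the 2 sets differ in role. Cyp7a1, the rate-limiting enzyme of bile acid synthesis, measured 10.83 and 10.41 against 3.16 and 3.41 (7.34 ± 0.29), and Cyp8b1, the sterol 12-alpha hydroxylase, differed by 8.36 ± 0.29. Abcb11, the bile salt export pump, measured 13.44 and 14.00 against 5.77 and 6.06 (7.81 ± 0.30). The 4 higher in colon were Fabp6, the bile acid binding protein of the intestine, Slc10a2, the apical bile acid uptake carrier, Slc51b, a subunit of the basolateral exporter, and Abcb1a, a drug efflux pump. Fabp6 measured 4.75 and 4.60 in liver and 9.75 and 9.36 in colon (-4.88 ± 0.60), and Slc51b a mean of 6.27 against 10.84 (-4.58 ± 0.25). Slc10a2 differed by -2.57 ± 0.48 and Abcb1a by -5.70 ± 0.67. The nuclear receptor for bile acids, Nr1h4, measured 10.59 and 10.84 in liver and 9.74 and 9.59 in colon (1.05 ± 0.24).

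Glucose metabolism divided by enzyme, with 14 of 29 tested genes higher in liver, 13 higher in colon and a median of 0.17. Among all genes tested 25.3% were higher in liver and 39.3% higher in colon, so the colon count is near that of genes at large. G6pc, which releases free glucose, measured 12.64 and 13.31 in liver and 4.07 and 3.30 in colon (9.29 ± 0.36). Fbp1, an enzyme of gluconeogenesis, differed by 9.20 ± 0.47, and the low-affinity glucose transporter Slc2a2 by 8.87 ± 0.42. Colon had the higher levels of Hk2, a hexokinase, at 7.15 and 6.07 against 11.81 and 11.89 (-5.24 ± 0.38). Colon was also higher for the glycolytic enzymes Pkm, at -5.31 ± 0.27, and Pfkp, at -5.66 ± 0.27. Each of the genes just named had both liver arrays on one side of both colon arrays. Pck1, the entry enzyme of gluconeogenesis, had no single direction: the probe set used here gave 7.12 and 7.39 in liver and 10.56 and 10.26 in colon (-3.16 ± 0.36), and another gave 12.01 and 12.75 against 10.27 and 10.32 (2.08). With the mean of its probe sets the difference was 0.53, and with probe sets shared between transcripts left out it was 2.08.

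Fatty acid handling showed an exchange of binding proteins. Fabp1, the liver fatty acid binding protein, measured 13.94 and 14.10 in liver and 5.10 and 4.84 in colon (9.05 ± 0.56). Fabp2, the intestinal one, measured 8.25 and 8.58 in liver and 13.50 and 13.58 in colon (-5.13 ± 0.91). Of the 25 tested genes of fatty acid oxidation and ketone bodies, 13 were higher in liver, against 25.3% of all genes tested. Another 3 were higher in colon (Fabp2, Acsm3 and Hadha) and 9 did not pass. Slc27a2, a fatty acid carrier with acyl-CoA synthetase activity, differed by 7.11 ± 1.40 and Acaa1b, a peroxisomal thiolase, by 7.50 ± 0.67.

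Genes known for their zone in the liver lobule were mostly higher in liver in both classes, 12 of 14 tested periportal genes (median 4.09) and 11 of 16 pericentral ones (median 2.87). The exceptions were Pck1 and Cdh1 among the periportal genes and Glul and Axin2 among the pericentral ones. Cdh1, E-cadherin, which epithelia share, measured 9.73 and 11.83 in liver and 13.02 and 13.01 in colon (-2.24 ± 0.58). Axin2, a Wnt target gene, measured 7.03 and 7.89 against 8.36 and 8.72 (-1.08 ± 0.33), and did not pass without adult liver replicate 1 (-0.65) or colon replicate 2 (-0.90). Lgr5, which marks colon stem cells and also pericentral hepatocytes, measured 6.66 and 8.51 against 6.98 and 5.54 and did not pass, though without adult liver replicate 1 its difference of 2.24 did.

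**Figure D4:**
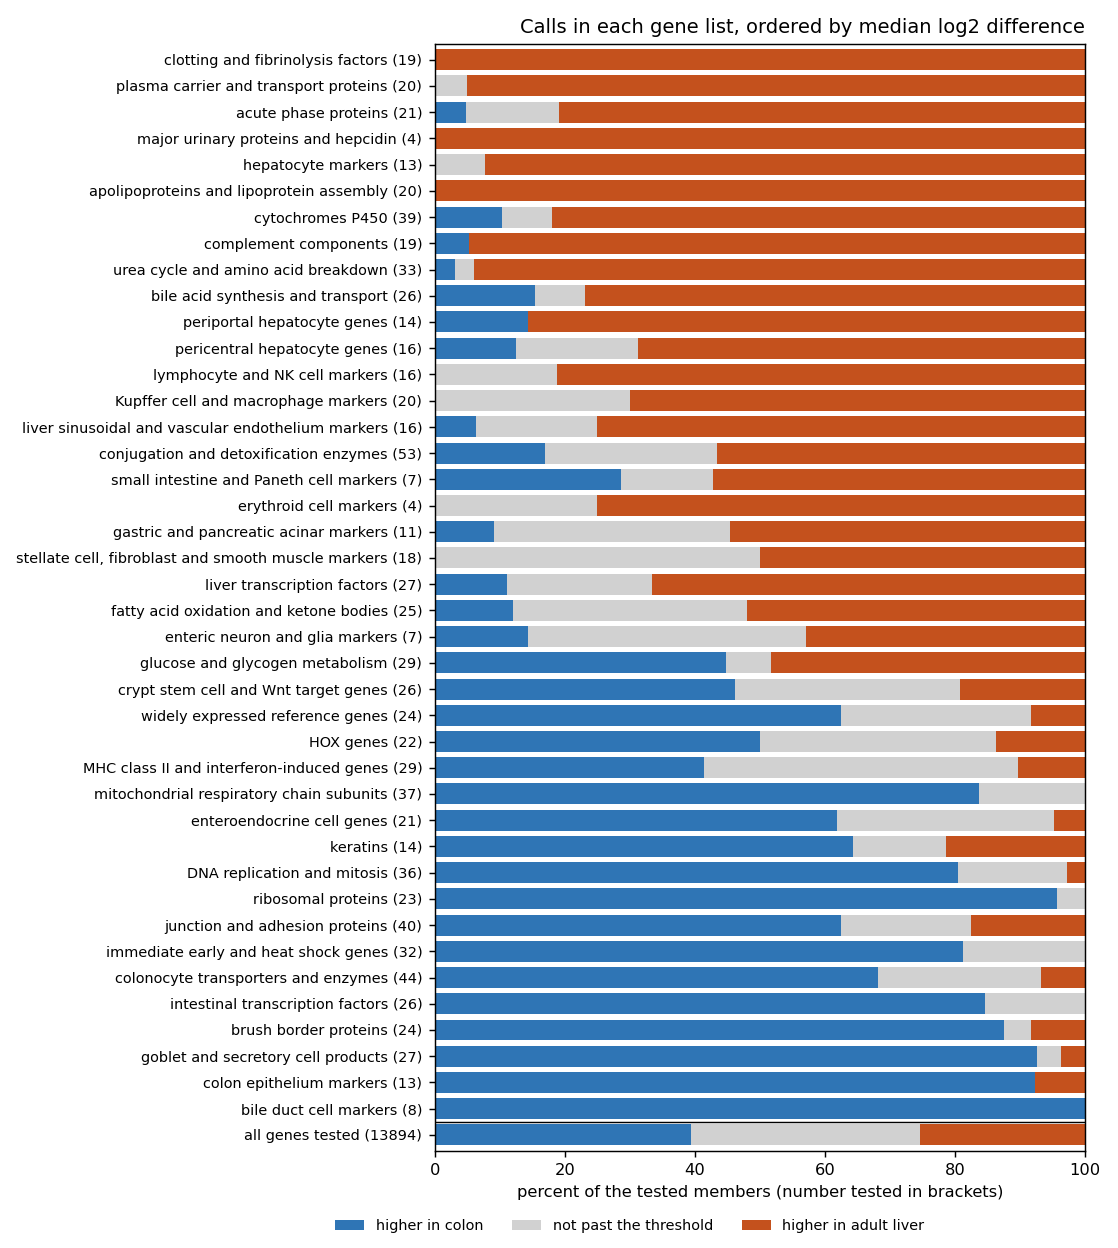
Share of the tested members of each gene list that were higher in colon, not past the threshold or higher in adult liver, ordered by median difference, with all 13894 tested genes at the bottom. Plasma protein, lipoprotein and urea cycle lists are almost wholly higher in liver, whereas goblet, brush border and intestinal transcription factor lists are almost wholly higher in colon.

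Of 27 liver transcription factors, 18 were higher in liver, against 25.3% of all genes tested. A further 3 were higher in colon and 6 did not pass, and the median of the list was 1.57. Onecut2, a cut-homeobox factor, had the largest difference of the list, with 11.43 and 11.77 in liver and 4.22 and 4.64 in colon (7.17 ± 0.32). Onecut1 measured 10.82 and 10.55 against 5.41 and 6.35 (4.81 ± 0.33), Mlxipl, the glucose-responsive factor ChREBP, differed by 4.76 ± 0.47, and Nr1i3, the xenobiotic receptor CAR, by 4.59 ± 0.24. Ppara, the receptor that drives fatty acid oxidation, measured 11.29 and 11.75 against 8.36 and 8.15 (3.26 ± 0.40). Cebpa differed by only 1.74 ± 0.27 and Foxa2 by 2.12 ± 0.27, with values of 8.48 to 9.04 on the colon arrays.

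Several endoderm factors were as high or higher in colon. Hnf4a measured 11.75 and 12.12 in liver and 12.69 and 12.70 in colon, a difference of -0.76 ± 0.84 that did not pass (limma adjusted p = 0.449). Its 4 probe sets lay between -3.71 and -0.62, and with their mean the difference was -2.11 and passed. Foxa1, a pioneer factor, measured 6.72 and 8.55 against 10.34 and 10.13 (-2.60 ± 0.59), and Gata6 7.83 and 7.01 against 9.78 and 9.75 (-2.34 ± 0.52). Nfil3, a leucine zipper repressor, was the third (-1.60 ± 0.47), but the call was lost without adult liver replicate 1 (-1.27), colon replicate 1 (-1.59) or colon replicate 2 (-1.61). Xbp1, a regulator of secretion, measured 13.42 and 13.29 against 11.30 and 11.48 (1.96 ± 0.26), and without probe sets shared between transcripts the difference turned to -3.10. Nr1i2, the xenobiotic receptor PXR, turned in the same way, from 1.55 to -0.36 with the mean of its probe sets.

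Of 26 intestinal transcription factors, 22 were higher in colon and 0 were higher in liver (median -3.60), against 39.3% of all genes tested. Cdx2 measured 5.70 and 6.05 in liver and 11.70 and 11.63 in colon (-5.79 ± 0.42), and Cdx1 a mean of 4.49 in liver against 11.04 in colon (-6.55 ± 0.25). Klf5, a factor of proliferating crypt cells, measured 5.21 and 4.43 against 13.42 and 13.21 (-8.50 ± 0.34). The liver values of these 3 genes were at the level of the induced macrophages or within 0.5 of it. Klf4, found in differentiated epithelium, differed by -7.37 ± 0.48, Ehf, an epithelial ETS factor, by -8.02 ± 0.21, Atoh1, which sets the secretory fate, by -3.67 ± 0.52, and Spdef, which acts in goblet cells, by -3.63 ± 0.27. The 4 not past the threshold were Pdx1, Hes1, Foxq1 and Grhl2. Foxq1 measured 8.95 and 8.96 against 8.32 and 8.63, and Grhl2 7.92 and 8.02 against 8.06 and 8.15. Under repeated quantile normalization Foxq1 passed as higher in liver (1.23).

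HOX genes record position along the body axis. Of 22 tested HOX genes, 11 were higher in colon, 3 were higher in liver and 8 did not pass, where 39.3% of all genes tested were higher in colon. Hoxb13, the last gene of its cluster, measured 5.54 and 5.01 in liver and 11.91 and 11.76 in colon (-6.56 ± 0.67), and Hoxa9 4.28 and 3.56 against 10.74 and 10.87 (-6.89 ± 0.28). Hoxa10 differed by -5.41 ± 0.22, Hoxa13 by -3.96 ± 0.28 and Hoxd11 by -3.73 ± 0.87. The liver arrays were under the 40th percentile for these genes. The 3 higher in liver, picked out by their values, were at low levels: Hoxb2 at 6.76 and 6.31 against 3.85 and 3.88, Hoxc9 at 7.81 and 7.94 against 6.56 and 6.30, and Hoxc13 at 6.39 and 5.87 against 5.12 and 5.64. The Hoxc13 difference of 0.75 did not pass without adult liver replicate 1 (0.49) or colon replicate 1 (0.50).

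Goblet and secretory products were higher in colon for 25 of 27 tested genes (median -4.71). Muc2, the gel-forming mucin of the colon, measured 5.04 and 5.34 in liver and 12.82 on both colon arrays (-7.63 ± 0.23). Agr2, a disulfide isomerase needed to fold mucin, measured 3.78 and 4.19 against 12.42 and 12.63 (-8.54 ± 0.37). Spink4 measured 6.58 and 6.67 against 14.36 on both colon arrays, and Reg4, a secreted lectin of colonic secretory cells, differed by -7.70 ± 0.25. For 17 of the 29 measured genes both liver arrays were under the 40th percentile. The 1 gene higher in liver, St6galnac1, a sialyltransferase, measured 6.69 and 6.97 against 6.46 and 5.45 (0.87 ± 0.32), a call that was lost without either liver array (1.01 and 0.74) or without colon replicate 2 (0.37).

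Among colonocyte transporters and enzymes, 30 of 44 were higher in colon, 3 were higher in liver and 11 did not pass (median -3.44). Slc26a3, the exchanger whose promoter is shown above, measured 4.06 and 3.81 in liver and 12.44 and 12.48 in colon (-8.53 ± 0.26). Car1 and Car4, carbonic anhydrases that supply bicarbonate and protons, differed by -7.22 ± 0.39 and -7.69 ± 0.21. Cftr, the chloride channel, measured 2.95 and 2.99 against 10.28 and 10.26, and Guca2a, the hormone guanylin, differed by -7.84 ± 0.22. The 3 that were higher in liver were all aquaporins, picked out by their values. Aqp9, which admits glycerol to hepatocytes, measured 12.34 and 12.89 against 5.14 and 4.82 (7.64 ± 0.30). Aqp8, a channel known from both hepatocytes and colonocytes, measured 11.22 and 11.57 in liver and 9.28 and 9.29 in colon (2.11 ± 0.56). It was the only 1 of 13 tested colon epithelium markers that was not higher in colon. Aqp1 measured 10.34 and 9.69 against 8.51 and 8.64, a difference of 1.44 ± 0.39 that did not pass without adult liver replicate 1 (1.11).

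The brush border, the carpet of microvilli on absorptive cells, was represented by 24 tested genes, of which 21 were higher in colon and 2 were higher in liver. Vil1, the actin bundler villin, measured 5.13 and 5.15 in liver and 12.34 and 12.31 in colon (-7.19 ± 0.42). Cdhr2, a cadherin that links microvilli, differed by -6.92 ± 0.40 and Mep1b, a membrane protease, by -6.51 ± 0.37. The 2 higher in liver were the surface peptidases Enpep, at 11.92 and 12.84 against 3.52 and 3.15 (9.05 ± 0.32), and Dpp4, at 9.88 and 10.94 against 5.41 and 5.80 (4.80 ± 0.44). Ezr, which ties membrane to actin, had 1 probe set at -4.46 and another at 4.74, so no direction is given for it.

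Both tissues had the simple epithelial keratins, and colon had further ones. Krt8 measured 10.75 and 10.94 in liver and 14.17 and 14.19 in colon (-3.33 ± 0.63). Its partner Krt18 measured 11.29 and 11.19 against 13.34 and 13.32 (-2.09 ± 0.69), a call that was lost when any 1 of the 4 arrays was left out (-2.04 to -2.14) or when quantile normalization was repeated (-1.73). Krt19 measured 6.23 and 4.83 against 14.10 and 14.05 (-8.54 ± 0.46), Krt20 5.52 and 6.15 against 12.69 and 12.55 (-6.79 ± 0.73), and Krt7 6.08 and 5.87 against 11.05 and 11.09 (-5.09 ± 0.97). In liver, Krt8 and Krt18 were thus well above the 40th percentile, while Krt19, Krt20 and Krt7 were near it. Of 14 tested keratins, 9 were higher in colon, against 39.3% of all genes tested. Another 3 were higher in liver (Krt4, Krt5 and Krt6a, at 6.64 to 7.58 there), against 25.3%, and 2 did not pass. Krt5 and Krt6a lost their calls when single arrays were left out (Krt5 without adult liver replicate 2, at 0.58, or colon replicate 1, at 0.43; Krt6a without any 1 of the 4, at 1.13 to 1.60).

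Of 40 tested junction and adhesion genes, 25 were higher in colon, against 39.3% of all genes tested. A further 7 were higher in liver and 8 did not pass (median of the list -2.30). Different members of the same families lay on each side. Among claudins, which seal tight junctions, Cldn1 measured 10.29 and 10.76 in liver and 3.60 and 3.33 in colon (7.06 ± 0.66). Cldn7 measured 5.15 and 5.23 in liver and 13.10 and 13.20 in colon (-7.96 ± 0.70), and Cldn23 3.24 and 2.85 against 11.62 and 11.69 (-8.61 ± 0.50). Among cadherins, Cdh2, N-cadherin, measured 11.58 and 12.37 against 3.13 and 3.26 (8.78 ± 0.49), and Cdh17, the liver-intestine cadherin, 5.82 and 5.35 against 11.78 and 11.70 (-6.15 ± 0.31). The gap junction proteins of hepatocytes Gjb1 and Gjb2 differed by 4.72 ± 0.22 and 3.47 ± 0.39. Ceacam1, an adhesion molecule known from both tissues, measured 13.20 and 13.67 against 13.83 and 13.98 (-0.46 ± 0.80) and did not pass, but its 8 probe sets ran from -4.86 to -0.46 and their mean of -2.52 did.

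Crypt stem cell and Wnt target genes were divided, with 12 of 26 higher in colon, 5 higher in liver and 9 not past the threshold (median -0.51, against -0.32 for all genes). These counts lie near the shares of all genes tested, 39.3% higher in colon and 25.3% higher in liver. Sox9, a factor of crypt progenitors, measured 6.13 and 7.01 in liver and 10.74 and 10.58 in colon (-4.09 ± 0.40), and Efnb2, an ephrin, differed by -4.64 ± 0.55. Notum, a secreted Wnt inhibitor, went the other way, at 9.50 and 10.66 against 5.62 and 5.56 (4.49 ± 0.33). Under repeated quantile normalization 9 were higher in colon and 7 in liver. Genes of DNA replication and mitosis were higher in colon for 29 of 36 (median -1.79). Mki67, which marks cycling cells, measured 8.16 and 7.09 in liver and 11.07 and 11.02 in colon (-3.41 ± 0.33), and Mcm6, of the replicative helicase, 5.21 and 4.63 against 9.59 and 10.08 (-4.92 ± 0.38). E2f1 was the 1 gene higher in liver (1.22 ± 0.46), and it did not pass without adult liver replicate 1 (0.75) or colon replicate 1 (0.87).

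Enteroendocrine genes were higher in colon for 13 of 21 tested, against 39.3% of all genes tested. Pax4 was the 1 higher in liver (1.35 ± 0.33). Chgb, a granule protein, measured 5.52 and 5.08 in liver and 11.72 and 11.77 in colon (-6.45 ± 0.28). The hormones of colonic L cells were well above the liver level: Pyy, peptide YY, measured 5.75 and 5.15 against 11.56 and 11.34, Insl5 4.38 and 5.04 against 10.56 and 10.64, and Gcg, proglucagon, 4.32 and 4.26 against 9.52 and 9.44. Gip, a hormone of the upper gut, was low in both tissues, at 5.09 and 5.47 against 5.85 and 5.94, and did not pass. Sst, somatostatin, measured 6.52 and 6.51 against 6.88 and 7.33 and did not pass either. With all 25 arrays in 1 fit its difference of -0.58 passed.

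Immediate early and heat shock genes, which are switched on within minutes of stress or stimulation, were higher in colon for 26 of 32 and higher in liver for 0 (median -2.46). Hspa1a, an inducible HSP70, measured 4.26 and 4.10 in liver and 11.69 and 11.90 in colon (-7.61 ± 0.24; limma adjusted p = 1.83e-08). Egr2 measured 4.06 and 3.94 against 11.84 and 12.04 (-7.94 ± 0.44), Atf3 6.33 and 5.82 against 13.30 and 13.26 (-7.20 ± 0.30), and Fos 7.04 and 7.98 against 13.62 and 13.60 (-6.11 ± 0.73). Elsewhere in the series Hspa1a lay at 4.89 to 5.09 in fetal liver and at 11.30 to 11.35 in iHeps recovered from the colon, and Fos at 8.30 to 8.59 and 13.48 to 13.57. In cultured iHeps Hspa1a lay at 7.06 to 7.61 and Fos at 10.04 to 12.81. On the induced macrophage arrays Hspa1a lay at 4.94 to 6.14 and Fos at 12.44 to 12.67. The way of isolating cells differs between the liver and colon arrays, and its part in the result was not tested.

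Of 29 tested genes for MHC class II and interferon responses, 12 were higher in colon, 3 were higher in liver and 14 did not pass. Among all genes tested 39.3% were higher in colon and 25.3% higher in liver, so the colon count is close to that of genes at large. The genes named next are single members. Ifit2, an antiviral protein, measured 6.90 and 5.29 in liver and 11.77 and 11.80 in colon (-5.69 ± 0.77), and Zbp1, a nucleic acid sensor, 6.86 and 6.77 against 12.19 and 12.07 (-5.31 ± 0.38). Oas1a, a double-stranded RNA sensor, measured 9.85 and 8.91 against 13.34 and 13.27 (-3.92 ± 0.76). Iigp1, an interferon-induced GTPase, was opposite, at 12.99 and 13.38 in liver and 8.75 and 9.10 in colon (4.26 ± 1.03). H2-Aa, of MHC class II, measured 10.54 and 8.89 against 7.44 and 7.71 (2.14 ± 0.43).

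Genes that all cells use leaned toward colon on this scale. Of 37 tested subunits of the mitochondrial respiratory chain 31 were higher in colon and 0 in liver (median -1.45), of 23 ribosomal proteins 22 and 0 (median -1.80), and of 24 reference genes 15 and 2 (median -0.81). Under repeated quantile normalization the counts for colon were 29, 22 and 12. Ndufa5, of complex I, measured 8.26 and 10.07 in liver and 13.30 and 13.33 in colon (-4.15 ± 0.52), with the liver arrays apart by more than 1. Hprt, a common reference gene, measured 8.61 and 9.21 against 11.29 and 11.26 (-2.37 ± 0.27). Others lay level, with B2m at 14.01 and 14.14 against 14.00 and 14.04. Rps9 differed by -2.22 ± 0.22 on the probe set used and by 2.21 with shared probe sets left out, and probe sets of ribosomal proteins can match related copies. The 3′ bias for beta-actin, given above, was 1.21 and 1.99 on liver replicates 1 and 2. On the same 2 arrays the respiratory chain list averaged 10.79 and 11.58, the ribosomal list 11.61 and 11.37, and the reference genes 10.81 and 10.73. The part of that bias in these lists was not tested.

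The 4 arrays matched their labelled tissues on the marker lists. Of 13 tested hepatocyte markers, 12 were higher in liver (mean level 13.52 and 13.43, against 6.70 and 6.60 in colon), and of 13 colon epithelium markers 12 were higher in colon (12.26 and 12.21, against 6.42 and 6.54 in liver).

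Markers of other liver cells were also higher on the liver arrays. In bulk RNA, fewer cells of a type and less RNA per cell cannot be told apart. Of 20 Kupffer cell and macrophage markers, 14 were higher in liver, against 25.3% of all genes tested, and 0 in colon (median 2.52). Their mean levels were 10.95 and 9.05 in liver and 7.03 and 6.96 in colon. Vsig4, a complement receptor of Kupffer cells, measured 12.34 and 10.02 in liver and 3.39 and 3.14 in colon (7.91 ± 0.71). Clec4f, a lectin of Kupffer cells, measured 12.54 and 10.73 against 5.99 and 6.16, and Cd5l 11.29 and 9.22 against 3.56 and 3.66. The liver arrays differed here, replicate 1 being higher for 19 of the 20 markers by a median of 2.05, while the hepatocyte markers differed by a median of 0.11. Without adult liver replicate 1, 10 of the 20 markers were higher in liver.

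Sinusoidal and vascular endothelium followed, with 12 of 16 tested markers higher in liver (mean level 8.51 and 7.62 against 5.75 and 5.67). Clec4g, a lectin of liver sinusoids, measured 12.00 and 11.33 against 4.83 and 4.90 (6.81 ± 0.29), and Stab2, a scavenger receptor of the same cells, 10.84 and 9.35 against 4.79 and 5.27 (5.06 ± 0.42). Pecam1, a general endothelial marker, was higher in colon at a low level, at 5.65 and 5.15 against 7.35 and 6.48. Of 18 markers of stellate cells, fibroblasts and smooth muscle, 9 were higher in liver and 0 in colon (mean level 7.98 and 7.34 against 6.12 and 6.13). Reln, which marks stellate cells, measured 10.57 and 9.82 against 4.07 and 4.14 (6.09 ± 0.30), and Dcn, the matrix protein decorin, 12.25 and 11.64 against 5.46 and 5.32.

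Lymphocyte and NK cell markers were higher in liver for 13 of 16 tested and in colon for 0, with mean levels of 7.68 and 6.79 in liver and 5.29 and 5.37 in colon. Both colon arrays were under the 40th percentile for 14 of the 22 measured markers. Ighm, the heavy chain of IgM, measured 12.30 and 8.75 in liver and 7.26 and 7.17 in colon (3.31 ± 0.85), and Jchain, the joining chain of secreted antibodies, 10.05 and 5.96 against 3.69 and 3.92 (4.20 ± 0.98). Cd3e, of the T cell receptor complex, measured 7.89 and 8.10 against 4.90 and 5.23 (2.93 ± 0.25). The antibody genes differed between the liver arrays by more than 3, whereas Cd3e did not. The colon mouse is of a genotype with very few lymphocytes, and genotype and tissue cannot be told apart for these genes.

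Bile duct markers were higher in colon for all 8 tested, and at mean levels of 5.72 and 5.59 the liver arrays were near the 40th percentile. The colon arrays averaged 11.18 and 10.96. Epcam, Krt19 and Sox9, which are on this list, are known from intestinal epithelium as well. Of 4 tested erythroid markers, 3 were higher in liver, against 25.3% of all genes tested, and 0 in colon (median 1.71). Alas2, of heme synthesis in red cell precursors, measured 8.51 and 8.54 in liver and 3.99 and 5.49 in colon. The globin gene Hba-a1, at 5.36 and 5.14 against 3.98 and 4.38, did not pass the filter on low values and was not tested. Enteric neuron and glia markers averaged 5.64 and 5.71 in liver and 5.60 and 5.29 in colon. Small intestine and Paneth cell markers averaged 7.43 and 7.32 against 6.32 and 6.43, and gastric and pancreatic ones 6.69 and 7.22 against 5.80 and 5.77. Of that last list Cela1, an elastase, was the 1 higher in colon, at 7.31 and 9.75 against 12.42 and 12.27 (-3.81 ± 0.63).

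**Figure D5:**
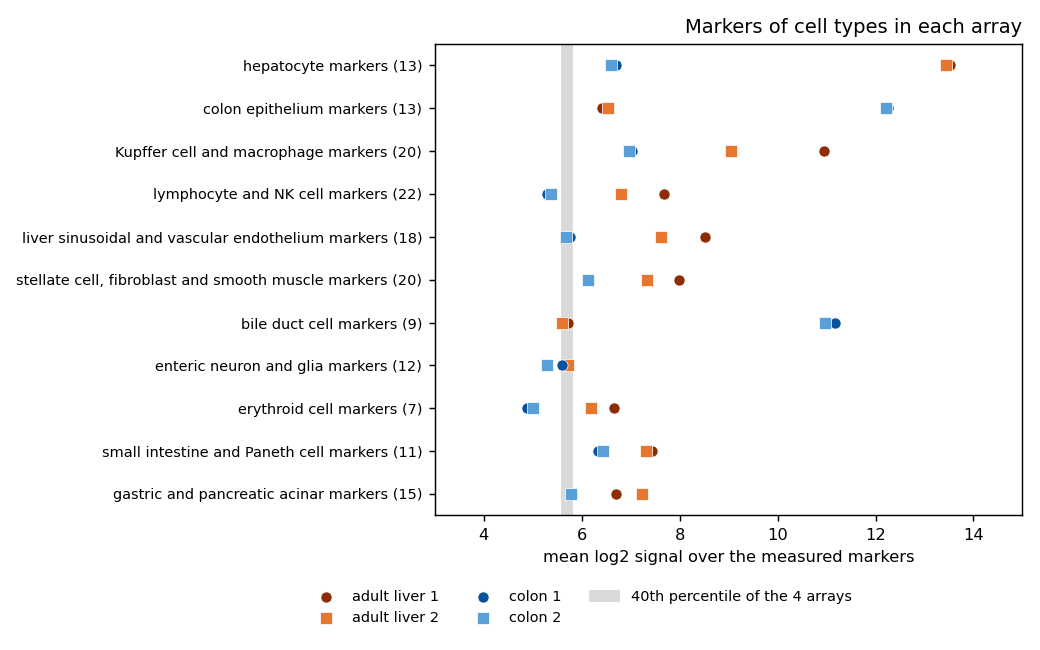
Mean log2 signal over the measured markers of each cell type (number in brackets) on the 4 arrays, with the 40th percentile of the arrays in grey. Hepatocyte and colon epithelium markers separate the tissues, and Kupffer cell markers are at 10.95 and 9.05 on the liver arrays.

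Genes tied to the genotype and sex of the mice were read as a check. Rag1 was low on all 4 arrays (2.97 to 3.24). Rag2, the gene disrupted in the colon mouse, measured 5.68 and 5.88 in liver and 6.61 and 7.12 in colon (-1.09 ± 0.30), and the call was lost without adult liver replicate 1 (-0.99) or colon replicate 2 (-0.83). The position of the probe set relative to the deleted part is not given in the sources used here, so this checks nothing. Xist, transcribed from the inactive X chromosome, measured 14.01 and 14.03 in liver and 12.16 and 12.25 in colon. Of the Y-linked genes, Eif2s3y measured 3.56 and 3.48 in liver and 6.25 and 6.36 in colon, where arrays of other groups reached 11.34, and Kdm5d was at 4.90 on both colon arrays.

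Probe sets of 1 gene could disagree. Of 25695 probe sets tested one by one, 17300 (67.3%) passed the threshold, 6288 (24.5%) higher in liver and 11012 (42.9%) higher in colon. Among 6548 genes with more than 1 tested probe set, 1086 (16.6%) had probe sets past the threshold in both directions, and 816 of them by at least 1 each way. The widest were Lasp1, with 9 probe sets from -5.07 to 4.98, and Nsd1, Ezr, Aldh2, Taf15 and Rbm12b1. The direction of such genes depends on the probe set chosen.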

How the data were processed

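The deposited values are log2 signals per probe set of Affymetrix mouse expression arrays, normalized by the authors with RMA per the submitters' processing notes; its version is not given in the sources used here. No depth applies to arrays; 2 arrays per tissue limit the precision.

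Of 45101 probe sets, 34945 had 1 gene symbol, 932 had several, 9160 were unnamed and 64 were controls. A gene was read from the probe set with the highest mean over the 25 arrays, which left 18193 genes. A gene was tested if at least 2 of the 4 arrays were above their own 40th percentile. A gene low in one tissue could thus be tested through the other alone, which favours that other tissue in list counts. Adult liver minus colon was fitted with limma 3.58.1 (R 4.3.3) over 11 arrays (iHep, fetal liver, adult liver, iHep recovered from colon, and colon; 6 residual degrees of freedom), with Benjamini-Hochberg adjustment over 13894 genes and a threshold of 0.05. Errors are SEs of that fit. The fit was tested on simulated data with changes of 0.5, 1, 2 and 4 in 50 genes each. It recovered 4%, 6%, 76% and 90% of them, and 6.38% of its 94 calls were unchanged genes. Few genes differed there, whereas 64.7% were called in the real comparison. The adjustment is stricter where few genes differ, so these shares do not carry over to the real comparison.

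Named genes are the 12 with the largest difference each way, up to 6 members past and 3 not past the threshold from each list by size, all regulators of the liver and intestinal lists, the 8 highest-level genes not past the threshold, up to 6 genes with probe sets in both directions, and family members high in either tissue. Exceptions to a list's direction were named after their values were seen. Members and lists were chosen with earlier results of these data known. Alternatives changed the filter, the probe set rule, the scaling, the model, the block and single arrays. Symbols are those of the platform annotation. Figures used matplotlib 3.10.9.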

Additional observations from a re-analysis of the deposited data

Results flagged for a closer look

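The poly-A spike probe sets lie outside the gene comparison and carried signal on the adult liver arrays far above the colon arrays. Their mean was 10.42 on adult liver replicate 1 and 9.58 on replicate 2, against 3.91 and 3.84 in colon and 4.07 to 8.99 on the other 21 arrays. Both liver arrays therefore lay above every other array of the series for these transcripts.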

How the results depend on the processing

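Leaving out each array in turn gave 7515 to 8112 genes past the threshold, against 8983. The numbers of higher and lower genes, and the total, stayed within 1.5 times of the reported ones under the 16 alternatives other than the spike covariate. With the poly-A spike signal as a covariate, 0 genes passed in either direction, with 1608 at an unadjusted p under 0.05. The replicate number as a block gave 8610 calls in limma; same-numbered arrays did not deviate together (r = 0.016 over genes), so the numbers were not taken as pairs. Repeating quantile normalization gave 51.0% of calls higher in liver, against 39.2%. Of 402 named genes, 287 had the same call under each of the 16 alternatives that tested them. Some alternatives tested fewer of these genes, which left 6281 recomputed values, and 12 of those values turned. With the mean of the probe sets these were C1qbp -0.85, Ezr 0.14, Gusb -0.77, Nr1i2 -0.36, Pck1 0.53, Snrpd3 0.20, Znrf3 -0.19. With probe sets that can match several transcripts left out they were C1qbp -2.65, Gkn3 -0.30, Pck1 2.08, Rps9 2.21, Xbp1 -3.10. In these the probe set read for the gene differs. Of 1376 list counts, 99 moved by more than 1.5 times, among them keratins higher in colon (9 to 5) under the 60th percentile filter, where fewer members were tested.

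With the spike covariate, where no call stands and the median SE was 2.50, further differences changed sign: Acsm3 7.22, Adgre1 -9.65, Aqp1 -2.74, Ascl2 1.16, Atp5o 2.25, Axin2 2.63, C1qa -9.99, Cd163 -8.33, Cd5l -3.37, Cdh1 9.47, Cela1 9.36, Clec1b -8.92, Clec4f -4.09, Colec11 -4.73, Cyp2c55 3.30, Cyp2c65 0.73, Dcn -3.87, E2f1 -3.32, Ecm1 -1.08, Esrrg 1.21, Foxa1 10.51, Gata4 -1.31, Gbp6 -5.59, Glul 1.67, Gpr182 -1.24, Gusb -6.15, Gzma -2.51, H2-Aa -6.78, Hbb-bh1 -1.59, Hopx -1.51, Hoxc13 -2.32, Hprt 0.67, Ifit1 6.91, Igha -15.59, Ighm -17.31, Jchain -14.85, Jun 7.67, Krt18 1.21, Krt20 4.21, Krt4 -3.37, Krt8 2.63, Lum -6.27, Mmp7 -0.35, Ms4a1 -6.45, Ndufa5 7.41, Ndufb10 4.26, Ndufb3 2.47, Ndufs7 5.19, Oit3 -2.49, Pdgfra -7.74, Ptprc -10.42, Saa1 0.40, Sdhc 1.99, Serpina6 -0.08, Slc10a2 7.54, Sox10 -1.17, Stab2 -2.30, Vsig4 -8.79, Xbp1 -0.14. In that fit the slope of the covariate comes only from differences between arrays within a group. It is then carried over the gap between the liver arrays (10.42 and 9.58) and the colon arrays (3.91 and 3.84). The values listed are therefore extrapolations and not estimates of the tissue difference.

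Limits of the design are 2 arrays per tissue, tissues that also differ in strain, genotype, isolation and spikes, and folds bounded by probe set background where a tissue was under the 40th percentile.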
